A study of Saccharomyces cerevisiae with 10 samples.

Results

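The Golgi mannosyltransferases described here are 10 genes of budding yeast (Saccharomyces cerevisiae), taken by systematic name from 6608 features of the YPD count table and 6190 of the YNB table. All 10 were present in both tables, and all 10 matched an NCBI RefSeq symbol of assembly R64. They are MNN9 (YPL050C), ANP1 (YEL036C), VAN1 (YML115C), MNN10 (YDR245W), MNN11 (YJL183W), HOC1 (YJR075W), OCH1 (YGL038C), MNN2 (YBR015C), MNN1 (YER001W) and KRE2 (YDR483W). The genes were chosen by enzyme family after footprint values of the [PSI+] and [psi-] comparison were known, MNN9 being among its largest increases. That comparison is therefore given as a description, with no p for a member.

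Yeast cells carry glycoproteins into the Golgi, where mannosyltransferases extend the N-linked glycan into a long mannose outer chain and lengthen O-linked mannose. Och1 adds the first mannose of the outer chain. The M-Pol I complex (Mnn9 and Van1) and then the M-Pol II complex (Mnn9, Anp1, Mnn10, Mnn11 and Hoc1) build the backbone. Mnn2 starts the side branches, Mnn1 caps chains with terminal mannose, and Kre2, also called Mnt1, extends O-linked and N-linked mannose. The mannoproteins made in this way form the outer layer of the cell wall.

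Ribosome footprints, the stretches of mRNA shielded by translating ribosomes, and mRNA came from 10 samples of the strain background 74D694, all treated with cycloheximide after growth at 30 °C (OD600 0.6 to 0.8). In rich medium (YPD), cells carrying [PSI+], the aggregated prion state of the termination factor Sup35, were compared with prion-free [psi-] cells with 2 footprint libraries and 1 mRNA library for each. In YNB, a synthetic medium lacking uracil (2% glucose), [PSI+] cells were compared with [PSI+] cells overexpressing the C-terminal part of Sup35 (SUP35-Cter), with 2 footprint samples each. These groups all share the 74D694 background, and both YNB groups carry [PSI+]. YPD footprint libraries held 2497170 to 3579039 reads, and the mRNA libraries 5494957 ([PSI+]) and 2480012 ([psi-]). The YNB table gives 1 mean per condition, so depth per sample is unknown there. In the authors' deposited table the mean for SUP35 was 6207 in [PSI+] and 20432 in the overexpressing cells (adjusted p = 0.0053). Spread in YPD is that between these replicates alone. By chi-square divided by its degrees of freedom, the [psi-] footprint pair stood at 1.27, little beyond counting noise, and the [PSI+] pair at 19.35 to 19.83.

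Footprints of most of these genes were more numerous in [PSI+] than in [psi-] in YPD. Both [PSI+] libraries lay above both [psi-] libraries for 9 of the 10 genes and below them for KRE2. The 9 include MNN11, which did not pass the filter on low counts. Over the 5135 genes that passed that filter, 35.9% lay above and 37.1% below in this way. Counts below are footprint reads without the 1 that the deposited table adds to each value, and CPM are counts per 1000000 reads after TMM scaling. The log2 fold changes were fitted to counts as deposited. There a [PSI+] library, summed from more than 1 run, carried an added 1 per run, and a [psi-] library a single 1. With 1 subtracted from every count the median log2 fold change of the members tested was 0.77, as in the main fit. In these bulk cultures, a change in RNA per cell and a change in the share of cells carrying it cannot be told apart.

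MNN9, the subunit common to both polymerase complexes, had 216 and 199 reads in the [PSI+] libraries and 43 and 59 in the [psi-] libraries. That is 86.0 and 57.6 CPM against 12.8 and 17.1 CPM, without overlap. Its log2 fold change in edgeR was 2.23 ± 0.27 (SE), rank 12 of 5135 genes. VAN1, its partner in M-Pol I, had 90 and 128 reads against 46 and 39, or 36.4 ± 0.851 CPM against 12.5 ± 1.71 (mean ± SD, n = 2 each). Its log2 fold change was 1.53 ± 0.20, and the [PSI+] libraries were close together. ANP1, MNN10 and HOC1, further subunits of M-Pol II, were nearer to equality between the strains.

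ANP1 had 47 and 89 reads in [PSI+] and 50 and 57 in [psi-], or 18.7 and 25.7 CPM against 14.9 and 16.5. MNN10, which carried the most [psi-] reads of the polymerase subunits, had 141 and 127 reads against 109 and 121. The second [PSI+] library, at 36.7 CPM, lay just above the higher [psi-] library at 35.0 CPM. HOC1 had 39 and 80 reads against 41 and 38, and the first [PSI+] library (15.5 CPM) was again close to [psi-] (10.99 and 12.2 CPM). The log2 fold changes were 0.53 ± 0.24 for ANP1, 0.45 ± 0.23 for MNN10 and 0.77 ± 0.27 for HOC1. MNN11 was barely seen in footprints, with 11 and 5 reads in [PSI+] and 0 and 2 in [psi-]. It did not pass the filter on low counts. Its summed ratio after depth was 9.13, with a 95% counting interval (exact binomial) of 2.15 to 81.9. Such intervals cover counting error only.

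Among the enzymes that act alone, OCH1, which starts the outer chain, had 38 and 55 reads in [PSI+] against 35 and 30 in [psi-], a log2 fold change of 0.72 ± 0.23. MNN2, the branching enzyme, had 63 and 97 reads against 30 and 42, or 26.6 ± 2.11 CPM against 10.5 ± 2.27, a log2 fold change of 1.33 ± 0.24. MNN1, the capping enzyme, had 97 and 172 reads against 70 and 66, or 44.2 ± 7.88 CPM against 19.97 ± 1.25, a log2 fold change of 1.15 ± 0.20. KRE2 went the other way, with 65 and 84 reads in [PSI+] against 135 and 131 in [psi-]. It stood at 25.1 ± 1.11 CPM in [PSI+] and 39.1 ± 1.65 in [psi-], a log2 fold change of -0.62 ± 0.16. KRE2 was thus the single member with fewer footprints in [PSI+].

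**Figure D1:**
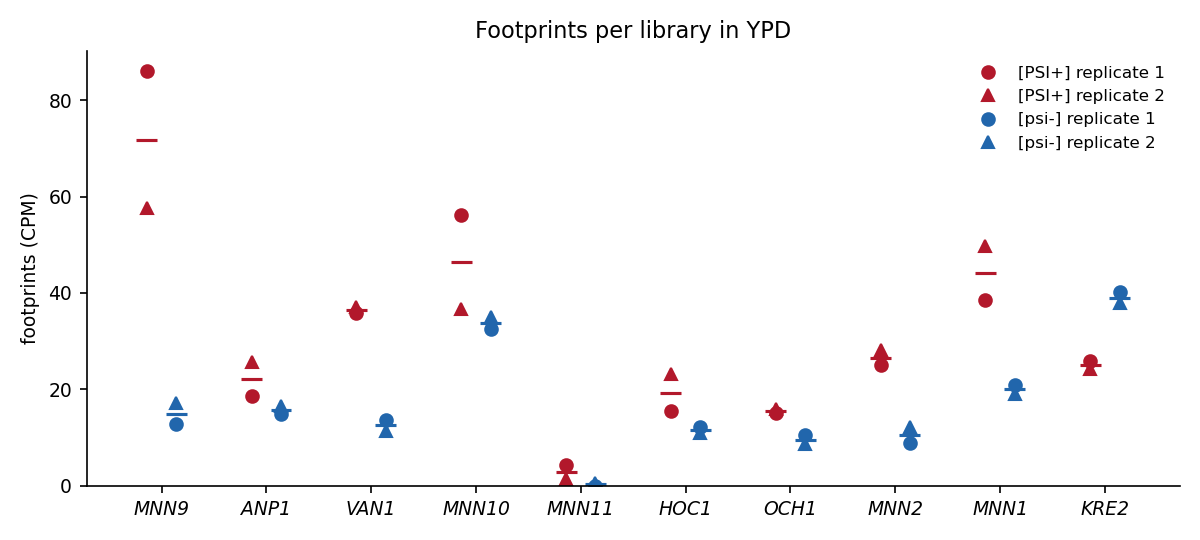
Footprints of each gene in YPD in CPM, 1 point per library (circles replicate 1, triangles replicate 2) with a bar at the mean of 2 libraries. [PSI+] lies above [psi-] except at KRE2, and MNN9 at 86.0 and 57.6 CPM in [PSI+] stands farthest from its [psi-] values.

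By edgeR's quasi-likelihood test over all genes (Benjamini-Hochberg adjusted p under 0.05), 4 of the 9 genes that passed the filter were called higher, namely MNN9, VAN1, MNN2 and MNN1. KRE2 was called lower. Over all genes 15.7% were called higher and 18.9% lower, and over the 1253 genes with 158 to 517 footprint reads, the range of these 9 genes, 16.0% and 12.5%. The comparison entered the choice of genes, so nothing is read from these counts. The median log2 fold change of the 9 was 0.77, against 0.02 over all genes. Over 10 alternative settings the log2 fold change ran from 1.92 to 2.52 for MNN9 and from 1.36 to 1.68 for VAN1. The call of MNN2 was lost without [psi-] replicate 1 (log2 1.12), and those of MNN1 (1.21 and 1.08) and KRE2 (-0.58 and -0.66) without either [psi-] replicate. All 3 calls were also lost when the [psi-] pair was summed, and with upper-quartile factors that of KRE2 was lost (-0.47) while HOC1 (0.91) and OCH1 (0.86) were called higher. The log2 fold changes of MNN10 (0.13 without [PSI+] replicate 1, 0.75 without replicate 2), HOC1 (0.99 and 0.47) and ANP1 (0.71 and 0.30) depended on the [PSI+] library left out. The authors' deposited table for these strains holds 6 of the 10 genes (MNN9, VAN1, MNN2, MNN1, KRE2 and MNN11), against 27.1% of all features, at its adjusted p limit of 0.1.

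Messenger RNA gave a different order of the same genes, and members of 1 complex parted. With 1 mRNA library per strain replicate spread could not be set beside a value and none was tested, and the intervals below are 95% counting intervals. For MNN11 658 mRNA reads were counted in [PSI+] against 80 in [psi-], a ratio after depth of 3.71 (interval 2.94 to 4.74). MNN9 had 832 against 150 reads, a ratio of 2.50 (2.10 to 2.999). MNN10, with the most mRNA reads of the 10, had 5130 against 1212, a ratio of 1.91 (1.79 to 2.04). These subunits of M-Pol II stood higher in [PSI+].

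HOC1, a subunit of the same complex, had 191 against 192 reads, 2.23-fold lower in [PSI+] after depth (1.81 to 2.74). OCH1 had 307 against 340 reads, 2.45-fold lower (2.10 to 2.87), and MNN2 had 114 against 91 reads, 1.77-fold lower (1.33 to 2.35). These 3 messages stood lower in [PSI+], whereas their footprints stood higher. The remaining messages differed less, with ratios of 1.23 for ANP1 (1066 against 391 reads), 1.14 for MNN1 (2595 against 1027), 1.04 for VAN1 (2291 against 999) and 0.798 for KRE2 (366 against 207).

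The median gene had a log2 mRNA ratio of -0.42, so levels were also set relative to it. On that scale MNN11 was at 2.30, MNN9 at 1.74, MNN10 at 1.35, ANP1 at 0.71, MNN1 at 0.61, VAN1 at 0.47, KRE2 at 0.09, MNN2 at -0.41, HOC1 at -0.74 and OCH1 at -0.88. KRE2 is thus below 1 as a plain ratio and above 0 relative to all genes. MNN9, MNN10 and MNN11 were over 2-fold above the median gene, against 21.5% of the 5213 genes measured. Over 2-fold below it lay 0 of the 10, against 22.1% of genes. The median of the 10 was 0.54.

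Footprints relative to mRNA, the translational efficiency, were compared between the strains by the interaction term of 1 edgeR model over footprint and mRNA libraries. That model takes the spread of an mRNA library to be the same as that of footprint libraries. The log2 change was 1.73 ± 0.38 (SE) for MNN2, 1.59 ± 0.29 for OCH1, 1.498 ± 0.39 for HOC1 and 1.06 ± 0.23 for VAN1, all higher in [PSI+]. MNN1 stood at 0.54 ± 0.27, MNN9 at 0.49 ± 0.41, MNN11 at 0.16 ± 0.69 and ANP1 at -0.19 ± 0.30. MNN11 entered this fit with 658 and 80 mRNA reads but 11, 5, 0 and 2 footprint reads. It stood at 0.77 with 1 subtracted from every count. KRE2 stood at -0.71 ± 0.24 and MNN10 at -0.90 ± 0.35. MNN9 stood higher in both mRNA and footprints, and its efficiency change was not called. HOC1, OCH1 and MNN2 combined lower mRNA with higher footprint means.

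VAN1, HOC1, OCH1 and MNN2, 4 of the 10, were called higher in efficiency against 17.9% of 5437 genes. The edgeR test called 0 of the 10 lower against 20.5%, with 2 members lower at an unadjusted p under 0.05; no other tool was run on this measure. The interaction holds the footprint comparison in which the genes were chosen, so it is a description too. Without [psi-] replicate 1 the calls of VAN1 (1.21), HOC1 (1.57) and MNN2 (1.53) were lost, and without [psi-] replicate 2 those of VAN1 (0.93), HOC1 (1.42) and OCH1 (1.47). Without [PSI+] replicate 1 or 2, MNN10 stood at -1.25 and -0.63 and KRE2 at -0.78 and -0.67. In the same order MNN1 stood at 0.68 and 0.33, and MNN9 at 0.16 and 0.75. Each of these fits has 1 [PSI+] footprint library, so its spread comes from the [psi-] pair. Calls in them are therefore not given.

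**Figure D2:**
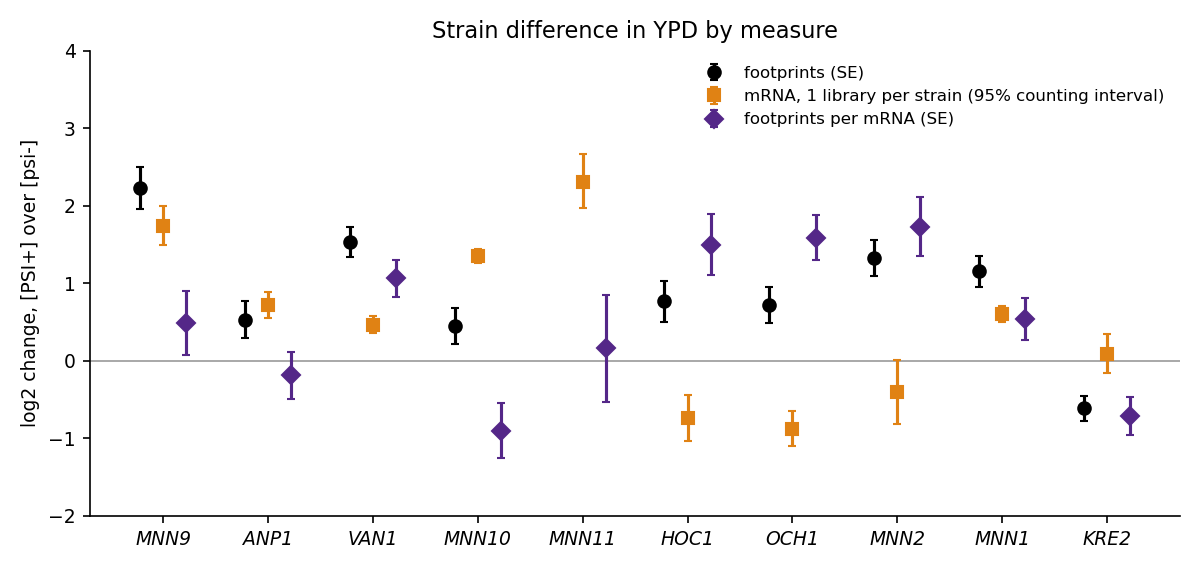
Log2 change from [psi-] to [PSI+] in YPD for footprints (black circles, SE), mRNA relative to the median gene (orange squares, 95% counting interval) and footprints per mRNA (purple diamonds, SE). HOC1, OCH1 and MNN2 have mRNA below 0 and footprints above 0, though the mRNA interval of MNN2 reaches 0. MNN11 has no footprint point because it did not pass the filter.

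Levels per length place these genes among all genes in footprints and in mRNA, with 1 mRNA library per strain. CPM were divided by gene length in R64, which ran from 1182 bases (MNN10) to 2289 (MNN1). In [PSI+] the order of footprint CPM per kb was MNN9 (48.5 and 72.4 in the 2 libraries), MNN10 (31.1 and 47.5), VAN1 (22.3 and 23.0), MNN1 (16.9 and 21.7), KRE2 (18.3 and 19.5), HOC1 (13.0 and 19.4), MNN2 (13.98 and 15.6), ANP1 (12.4 and 17.1), OCH1 (10.5 and 11.03) and MNN11 (1.14 and 3.45). The ranges of MNN1, KRE2 and HOC1 overlapped, as did those of HOC1, MNN2 and ANP1, and the others were apart from their neighbours. In [psi-] KRE2 (28.5 and 30.3) and MNN10 (27.5 and 29.6) led with overlapping ranges. MNN9 (10.8 and 14.4) overlapped ANP1 (9.91 and 10.97), the next in order, and the last was MNN11 (0 and 0.456).

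Among 5028 genes ranked by level per kb (20 or more reads in both kinds of library, plus MNN11), the mRNA of these genes stood at or above the middle for most. A median of 73.7% of genes had less mRNA per kb than a member in [PSI+] and 62.2% in [psi-]. For footprints the medians were 29.2% and 17.1%. All 10 genes lay below the middle for footprints in [psi-], and all but MNN9 (58.3%) in [PSI+]. MNN10 had more mRNA per kb than 96.5% of genes in [PSI+] and more footprints than 48.3%. MNN2 was at the other end, with more mRNA than 22.5% and more footprints than 25.6% of genes.

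The ratio of footprint CPM to mRNA CPM was accordingly low. In [PSI+] it was 0.0366 and 0.0121 for MNN11, 0.0601 and 0.0394 for MNN10, 0.0859 and 0.0888 for VAN1, 0.0818 and 0.105 for MNN1, and 0.0964 and 0.133 for ANP1, each footprint library being set against the same mRNA library. It reached 1.21 and 1.35 for MNN2. These ratios rest on 1 mRNA library per strain, and how closely its reads followed message abundance was not tested. Elsewhere in the pathway the 2 kinds of reads parted both ways in [PSI+]. DPM1 had 1045 and 1661 footprint reads with 32 mRNA reads, and PSA1 had 3176 and 3870 with 14979. The median member had a higher ratio than 10.04% of genes in [PSI+] and 6.30% in [psi-]. MNN11, MNN10, VAN1, MNN1 and ANP1 each exceeded at most 4.99% of genes in [PSI+], whereas MNN2 lay at 58.0%. In the other medium, where no mRNA was measured here, the footprint levels per kb of [PSI+] cells were higher than those of 36.3% of genes at the median member, with MNN11 last (1.97%) and KRE2 first (56.6%).

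**Figure D3:**
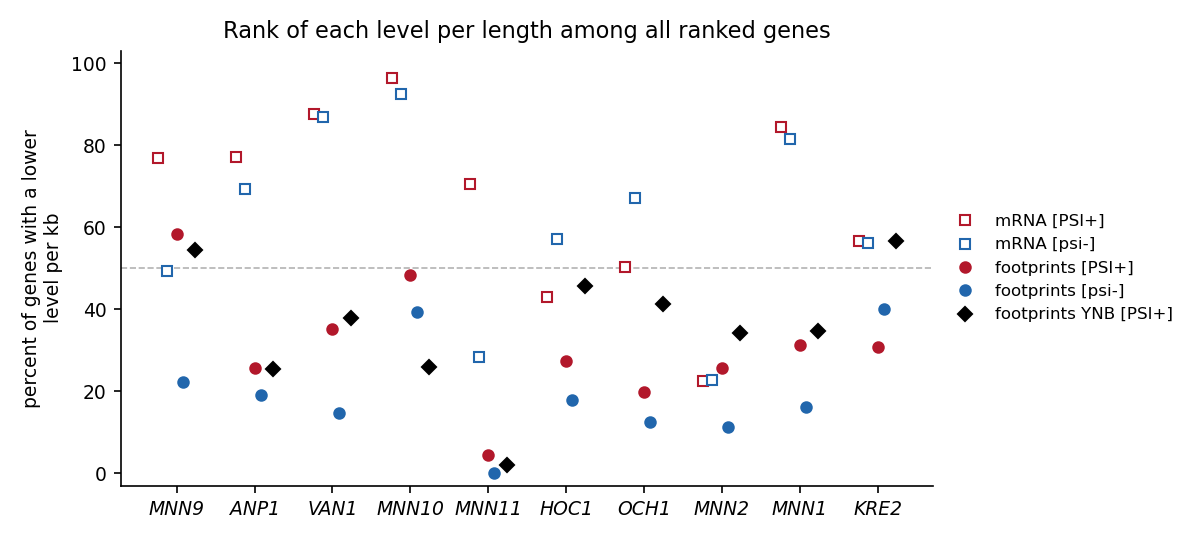
Share of ranked genes with a lower level per kb than each member, in percent, for mRNA (open squares) and footprints (circles) of both strains in YPD and footprints of [PSI+] in YNB (diamonds). Within a strain, footprint ranks lie below mRNA ranks for every member except MNN2, whose footprints stand higher in [PSI+] (25.6% against 22.5%).

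In YNB, overexpression of SUP35-Cter went with higher means for all 10 genes. These libraries share none with the YPD experiment, but the members were chosen with earlier results of these data known. The authors' deposited table gives the highest folds for MNN11, from 108 to 309.8 mean normalized counts (2.88-fold), and ANP1, from 802 to 1687 (2.10-fold). In the authors' deposited table KRE2 went from 2313 to 4277 (1.85-fold), MNN10 from 646 to 1187 (1.84-fold) and OCH1 from 1439 to 2487 (1.73-fold). MNN2 (1370 to 2214), HOC1 (1388 to 2224), MNN1 (1782 to 2670) and VAN1 (1412 to 1906) had folds of 1.62, 1.602, 1.498 and 1.35 in the authors' deposited table. MNN9 had the smallest fold there, 1.18 (1903 to 2247).

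ANP1 rose at an adjusted p of 0.017 in the authors' deposited table, and it was the only member under 0.05, against 1.2% of 6190 features called higher. MNN11 stood at 0.057, and the other 8 between 0.27 and 1.0, in the authors' deposited table. Before adjustment, 6 of the 10 (ANP1, MNN11, MNN10, HOC1, OCH1 and KRE2) had p under 0.05 in the authors' deposited table, against 6.05% of genes that did so with a higher mean. A higher mean with SUP35-Cter was found for 47.8% of the 5566 genes with a mean level of 10 or more. It was found for 54.2% of the 3633 genes with mean levels of 209 to 3295, the range of the members. The median log2 ratio was 0.74 over the 10 genes, -0.02 over all genes and 0.04 over that range. A spread between replicates is unknown for these means.

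**Figure D4:**
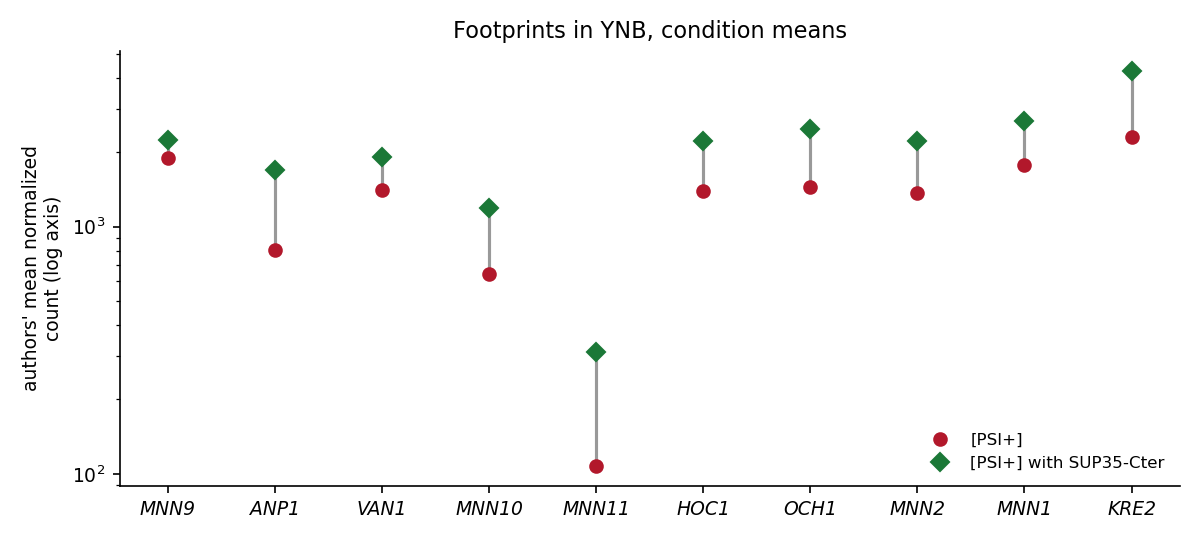
The authors' mean normalized footprint counts in YNB, on a log axis, for [PSI+] (red circles) and [PSI+] with SUP35-Cter (green diamonds), with a line joining both means of a gene. All 10 means are higher with SUP35-Cter, from 1.18-fold at MNN9 to 2.88-fold at MNN11.

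Other genes of the pathway were counted from lists of 56 genes. The shares to set beside these counts are those over all genes, 15.7% called higher and 18.9% lower in YPD footprints and 47.8% with a higher mean in YNB. Of 13 further Golgi mannosylation genes (MNN4, MNN5, the KTR genes, YUR1 and the MNT genes), 12 could be tested in YPD footprints. KTR3 had 0 reads in all 6 libraries. KTR6 rose (log2 1.21) and KTR2 fell (-2.62, from 76 and 63 reads in [psi-] to 5 and 11 in [PSI+]), and the median was 0.33. KTR6 was not called without either [psi-] replicate. Over the 10 alternatives KTR2 ran from -2.91, with 1 subtracted from every count, to -2.45. In YNB all 12 had a higher mean with SUP35-Cter (median log2 ratio 0.88). Among them MNN5, which adds the second branch mannose after Mnn2, rose from 670 to 1723 at an adjusted p of 0.039 in the authors' deposited table.

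Of 7 genes for GDP-mannose supply and its import into the Golgi, GDA1 (log2 1.29), whose product clears the nucleotide by-product, and VRG4 (0.99), the GDP-mannose transporter, rose in YPD footprints (median 0.28). In YNB, 2 of these 7 had a higher mean with SUP35-Cter (median -0.06). Of 7 ER mannosyltransferase genes, ALG2 (1.00) rose in YPD (median 0.19), and 5 had a higher mean in YNB (median 0.22). GDA1, VRG4 and ALG2 were not called without either [psi-] replicate. ALG2 stood at 0.60 without [PSI+] replicate 1.

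Of 17 genes for retention and retrieval of Golgi enzymes (VPS74, COPI coat and COG complex), 4 rose, with COG5 (0.66), COP1 (0.65) and COG2 (0.55) highest, and 3 fell in YPD, namely SEC28 (-0.87), SEC26 (-0.74) and COG6 (-0.46). These counts lie near the 15.7% and 18.9% over all genes, and the median of 0.02 is that of all genes. In YNB 6 of 17 had a higher mean (median -0.04). Of 12 wall mannoproteins that carry these glycans, 5 rose, led by GAS1 (1.57), CCW14 (1.196) and PIR1 (1.06), and PIR3 fell (-3.39), against 15.7% and 18.9% over all genes. Their median was 0.50 in YPD and 0.00 in YNB, where 6 of 12 had a higher mean, against 47.8% over all genes. The calls of COG5, COP1, COG2, SEC28, SEC26, COG6, CCW14 and PIR1 were lost without either [psi-] replicate. Over the 10 alternatives GAS1 ran from 1.4 to 1.72. PIR3 had only 3 and 1 reads in [PSI+] against 43 and 54 in [psi-]. It ran from -4.31, with 1 subtracted from every count, to -2.83.

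**Figure D5:**
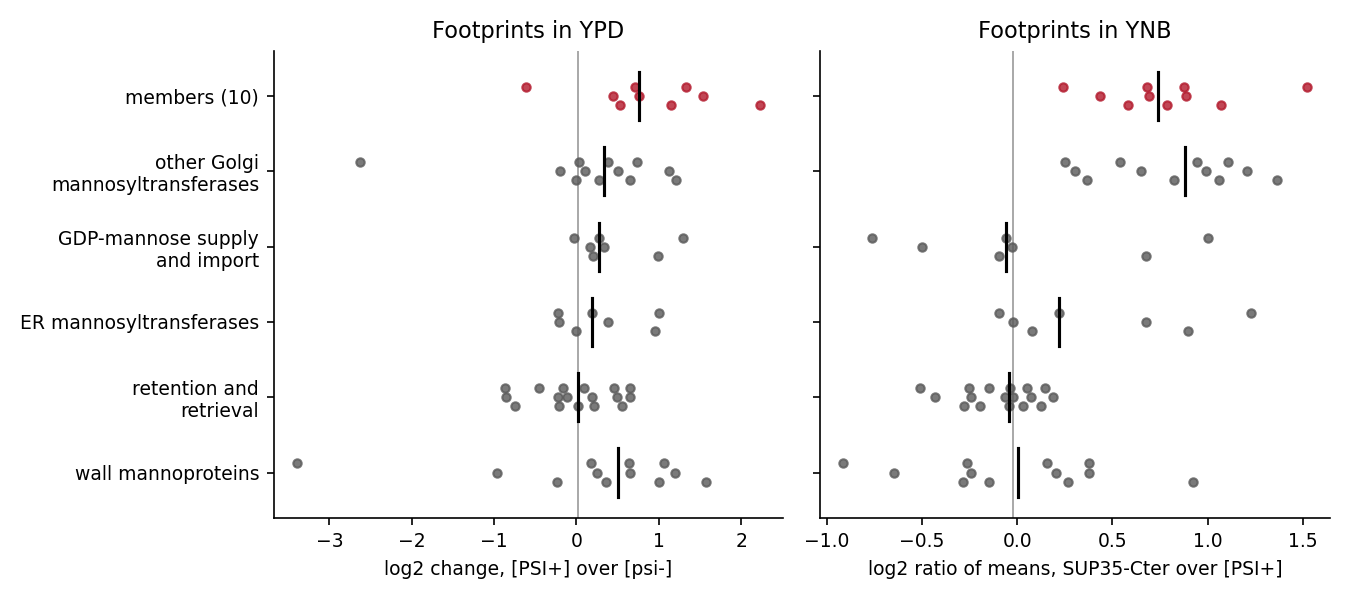
Log2 footprint change per gene for the 10 members (red) and 5 other lists of the pathway (grey), [PSI+] over [psi-] in YPD at the left and SUP35-Cter over [PSI+] in YNB at the right, with a black bar at each median and a grey line at the median of all genes. In YNB all members and all 12 further Golgi mannosylation genes with a value lie above 0.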

How the data were processed

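Counts per gene in YPD were made by the authors with HTSeq 0.5.3p3 (intersection-nonempty mode, per the deposited description) after mapping tied to Bowtie 0.12.7 and sacCer2 by the submitters' processing notes. No deposited count is below 1, so 1 had been added to each. The sources used here do not give how multiply mapping reads were treated or whether strand was used. The 4 [PSI+] footprint columns were summed as 2 pairs of runs whose counts differed by no more than sampling noise (chi-square tests, p = 0.26 and p = 0.55); the replicate number is only a name, and 0 columns lacked a sample. The authors' deposited YPD table holds a mean signal per condition, a log2 fold and p-values from DESeq 1.6.1, listing genes under an adjusted p of 0.1. For YNB, cutadapt 1.2.1, Bowtie2, HTSeq 0.5.3p3, DESeq 1.6.1 and sacCer3 appear in the submitters' processing notes. Only condition means and the authors' p-values were used there, because counts per library of that experiment were not analysed here; the count tests planned for it were not run.

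Footprint counts as deposited from the 4 YPD footprint libraries went into edgeR 4.0.16 under R 4.3.3 (filterByExpr with a minimum count of 10, TMM, quasi-likelihood test, Benjamini-Hochberg), and efficiency was fitted over all 6 YPD libraries. The code was tested on simulated data. mRNA ratios used library totals, 0.5 added to each read number and a minimum of 20 reads over both libraries; YNB log2 ratios used 0.5 added to each mean. The limit that 0 reads allow was taken as 3 reads per library (0.838 CPM in the deepest footprint library). Members and lists were chosen with earlier results of these data known. All members are named; of the other lists, at most the 3 largest called changes in each direction are named, plus the list's genes that stand out in YNB or at 0 reads, chosen after their values were seen. No sequences are shown, and 1 gene of the lists is not reported here.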

Additional observations from a re-analysis of the deposited data

How the results depend on the processing

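The footprint comparison called 5 members (4 higher, 1 lower). Leaving out a replicate gave 2 to 8 (2 to 7 higher, 0 to 1 lower) and summing the [psi-] pair gave 2, both higher and 0 lower. With upper-quartile factors 6 were higher and 0 lower. Of the 56 other pathway genes 18 were called (13 higher, 5 lower), against 3 to 33 (1 to 25 higher, 2 to 9 lower) without a replicate, 3 with the [psi-] pair summed (1 higher, 2 lower) and 10 with DESeq2 (6 higher). In the main fit 55 of those 56 genes were tested. Over all 5135 genes that fit called 15.7% higher and 18.9% lower. Efficiency called 4 members, all higher. That number changed when a footprint replicate was left out, as did the number called over all genes. In footprints none of the 9 members tested changed sign under the 10 alternatives. In efficiency MNN11, which was tested but never called, ran from -0.59 to 1.07. The median mRNA change of the members was 0.54, and 0.12 when not centred on all genes. The median YNB ratio moved by less than 0.05 with 5 added or no minimum. Upper-quartile factors moved the median of all genes in footprints by 0.149, and RLE factors moved it in efficiency by 0.111. Of all footprint calls 45.3% were higher with TMM, 60.5% with upper-quartile factors and 23.3% with DESeq2. Over all 5135 genes 1779 were called in the main fit, and that number moved the same way as that of the members. A fit without 1 [PSI+] library takes its spread from the [psi-] pair alone. A fit with 1 [psi-] library, after leaving out or summing, takes it from the [PSI+] pair alone. Numbers called in such fits are therefore not given. The cause of the shifts between scaling factors or tools was not tested. No paired analysis was possible because the [PSI+] columns carry no replicate number that matches the titles. Depth limits MNN11 most, with 18 footprint reads in all. DESeq2 on YNB counts per library was not run.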
